A study of Homo sapiens with 8 samples.

Results

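The zinc metalloproteinases that cut the extracellular matrix and shed cell-surface proteins were followed in HAP1 cells in which BCDIN3D was knocked out. The family was taken by gene symbol: every symbol made of the stem ADAM, ADAMTS, ADAMTSL, MMP or TIMP and a number with nothing after it, and MME, which gave 73 of the 57996 symbols counted. Symbols with a further letter, such as ADAM1A and MMP23B, fall outside it. The members comprise 22 ADAM, 19 ADAMTS, 5 ADAMTSL, 22 MMP and 4 TIMP genes and MME. The rule itself uses no measured value, though members were chosen with earlier results of these data known.

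HAP1 cells are an established human line with close to a single set of chromosomes, of chronic myelogenous leukaemia origin. The knockout libraries came from 1 HAP1 clone, clone 11, in which BCDIN3D, an RNA methyltransferase gene, was knocked out, and the wild-type libraries from HAP1 cells labelled WT. Cells of both genotypes grew for 48 h in medium with 10% serum, and total RNA was sequenced with a kit that keeps the strand. There were 2 knockout and 2 wild-type RNA libraries, 1 of each with 6 May in its label and 1 of each with 9 May. With a single clone, the loss of the gene and differences between clones cannot be told apart.

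Depth lay between 20065041 and 21416336 counts in the knockout libraries and between 20728819 and 24415272 in the wild-type libraries. BCDIN3D itself had 33 and 54 counts in knockout against 154 and 121 in wild-type libraries, a log2 fold change of -1.52 ± 0.24 (SE, edgeR adjusted p = 2.06e-05). Of 10 blood lineage markers only KIT had enough counts to be tested. Their summed level was 1.04 to 1.66 CPM (counts scaled to library size) in knockout and 11.3 to 12.0 CPM in wild-type libraries, most of it KIT, which was lower in knockout. PTPRC, CD34, GATA1 and SPI1 had at most 5 counts in any library. Among matrix-producing cell markers DCN and LUM were at 0 in every library. Of 4 tested, 1 (POSTN) was lower in knockout with edgeR (adjusted p = 0.00971) but not with DESeq2 (adjusted p = 0.171). The list of 9 summed to 71.0 to 80.9 CPM in knockout and 72.0 to 85.8 CPM in wild-type libraries. Most of it was PDGFRA, at 61.8 and 71.5 CPM in knockout and 60.6 and 72.9 CPM in wild-type. COL1A1 followed, at a mean of 7.57 CPM in knockout and 8.42 CPM in wild-type. PDGFRA (log2 fold change -0.0045 ± 0.08), COL1A1 (-0.16 ± 0.16) and THY1 (-1.65 ± 0.59) were called by neither edgeR nor DESeq2. Of 8 epithelial markers 3 were tested, EPCAM, KRT8 and KRT18. All 3 were lower in knockout at an edgeR adjusted p under 0.05, beside 3.50% of all genes tested. DESeq2 gave an adjusted p of 8.65e-07 for KRT8, but 0.187 for EPCAM and 0.225 for KRT18. EPCAM had 4 and 3 counts in knockout against 18 and 21 in wild-type. The epithelial list summed to 50.6 to 58.4 CPM in knockout and 69.4 to 78.4 CPM in wild-type libraries. The endothelial list, with PECAM1 at 0, summed to 0 to 0.201 CPM in knockout and 0.162 to 0.385 CPM in wild-type libraries. The macrophage list, with CD163 and AIF1 at 0, summed to 0.284 to 0.654 CPM in knockout and 0.729 to 0.817 CPM in wild-type libraries. The part of KIT, POSTN and the epithelial markers in the differences below was not tested.

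ADAM proteins are membrane-anchored and release the outer parts of receptors, ligands and adhesion proteins. ADAMTS enzymes are secreted relatives with thrombospondin repeats that cut proteoglycans, procollagens and von Willebrand factor, and the ADAMTS-like proteins keep the accessory repeats but have no protease domain. MMPs are made as inactive precursors and degrade collagens, gelatin, proteoglycans and other matrix proteins, and TIMPs occupy their catalytic site. MME encodes neprilysin (CD10), a membrane peptidase that breaks down small signalling peptides and amyloid beta.

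Sequence upstream of the start site was examined first, because the family divides into members that HAP1 cells transcribe and members with few or no counts in the 4 libraries. RefSeq start windows of GRCh38.p14 matched 44 of the 73 members by symbol. Shown here are the 250 bases before the start of MME, the member with the largest rise in knockout, of ADAMTS12, the member with the largest fall, and of MMP10, a member of an MMP gene cluster on chromosome 11 that was close to silent. They lie at chr3:155079422-155079671 (plus strand, the first of 4 MME starts in the table), chr5:33891991-33892240 (minus strand) and chr11:102780629-102780878 (minus strand). Each runs 5′ to 3′ toward the start site, and capitals mark CpG dinucleotides.
MME: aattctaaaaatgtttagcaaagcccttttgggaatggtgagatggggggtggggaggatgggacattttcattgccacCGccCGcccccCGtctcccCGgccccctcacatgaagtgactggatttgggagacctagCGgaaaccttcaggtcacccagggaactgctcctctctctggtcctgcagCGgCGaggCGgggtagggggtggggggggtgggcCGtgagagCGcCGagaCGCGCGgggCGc
ADAMTS12: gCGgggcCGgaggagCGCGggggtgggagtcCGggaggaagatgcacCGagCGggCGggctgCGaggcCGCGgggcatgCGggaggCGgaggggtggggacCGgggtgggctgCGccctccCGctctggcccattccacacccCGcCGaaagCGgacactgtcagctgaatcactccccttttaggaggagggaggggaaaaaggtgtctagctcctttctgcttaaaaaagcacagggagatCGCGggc
MMP10: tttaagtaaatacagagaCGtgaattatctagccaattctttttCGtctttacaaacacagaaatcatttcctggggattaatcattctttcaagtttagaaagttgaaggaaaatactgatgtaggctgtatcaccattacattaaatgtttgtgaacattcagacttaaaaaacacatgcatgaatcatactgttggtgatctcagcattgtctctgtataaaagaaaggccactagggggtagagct

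The MME window shown held 15 CpG dinucleotides and that of ADAMTS12 held 21, whereas that of MMP10 held 2. Windows at the other MME starts held 25, 23 and 17, and the one with 25 enters the medians that follow. Over the members with enough counts to be tested, the median was 25 CpGs (24 members with a window, taking the window with most CpGs for a gene with several starts). Over the members with too few counts it was 8.5 (20 members). The same medians over all genes with a window were 23 for the 10290 tested genes and 5 for the 5475 genes not tested, a division of the same direction. The 5 windows matched in the chromosome 11 cluster held 0 to 3 CpGs.

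**Figure D1:**
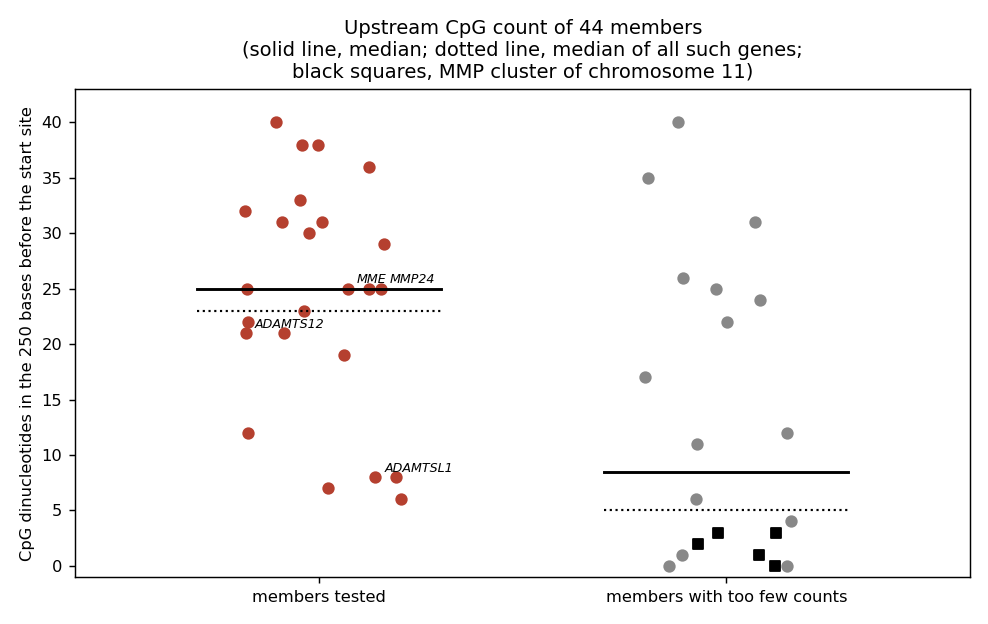
CpG dinucleotides in the 250 bases before the start site (vertical axis) for 44 members, split into those tested and those with too few counts. Solid lines are the medians of 25 and 8.5, and dotted lines the medians of 23 and 5 over all genes of the same class. Black squares are the MMP genes of the chromosome 11 cluster, which held 0 to 3.

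A loose form of the AP-1 motif, TGANTCA with N any base, was searched on both strands. Its letters cannot overlap those of the GC box below. This loose motif lay in 4 of the 48 member windows (8.33%) and in 6.57% of all 35116 windows of this length. It was TGAATCA at 84 bases before the start of ADAMTS12, 67 before that of MMP10 and 112 before that of MMP20, and TGAGTCA at 67 bases before that of MMP7. The GC box GGGCGG was searched on both strands in 1 window per gene, the one with most CpGs. It lay in that window for 87.5% of tested members and for 45% of members with too few counts. Over all genes of those classes the shares were 72.6% and 30.0%. GGGCGG itself holds a CpG, so this choice of window favours it.

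Of the 73 members 33 had enough counts to be tested and 40 did not. Of the untested members 13 had 0 counts in every library, 18 had 1 to 10 counts in all and 9 had more, with at most 15 in any library. A count of 0 allows a level of up to 0.121 to 0.151 CPM, that of 3 counts in a library. The MMPs were the most thinly represented, with 7 of 22 tested: the collagenase genes MMP1, MMP8 and MMP13, the matrilysin genes MMP7 and MMP26 and the gelatinase genes MMP2 and MMP9 all fell short. The cluster of 9 MMP genes on chromosome 11 (MMP7, MMP20, MMP27, MMP8, MMP10, MMP1, MMP3, MMP12 and MMP13, 102520508 to 102955732) gave 0 counts in the knockout libraries and 3 in the wild-type libraries. All 6 membrane-anchored MMP genes, by contrast, were tested, among them MMP14, whose enzyme activates the MMP2 precursor.

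Of the 33 tested members 3 rose in knockout, MME, MMP24 and ADAMTSL1, and 2 fell, ADAMTS12 and ADAMTS1. Over all 16233 genes tested 6.56% passed the same threshold, an adjusted p under 0.05 with edgeR's quasi-likelihood test, 3.06% higher and 3.50% lower. The 5 called members were 15.2% of those tested, a share that rests on few genes. It includes MME, the only member taken by its full name and not by a family stem. As members were chosen with earlier results known, this share cannot show that the family changed more often than other genes. At least 2-fold changes among the calls were those of MME and ADAMTS12, 2 members, against 2.44% of all genes tested. With the date as a block the same 3 members were higher and the same 2 lower, while 9.55% of all genes were called (4.72% higher, 4.83% lower). With DESeq2 only MME was called higher, and ADAMTS12 and ADAMTS1 lower, while 3.61% of all genes were called (1.57% higher, 2.04% lower). Tested members had a median log2 fold change of 0.03, and all genes tested one of 0.0017. The CPM of the groups did not overlap for 20 of the 33 members, and for 45.3% of all genes tested.

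**Figure D2:**
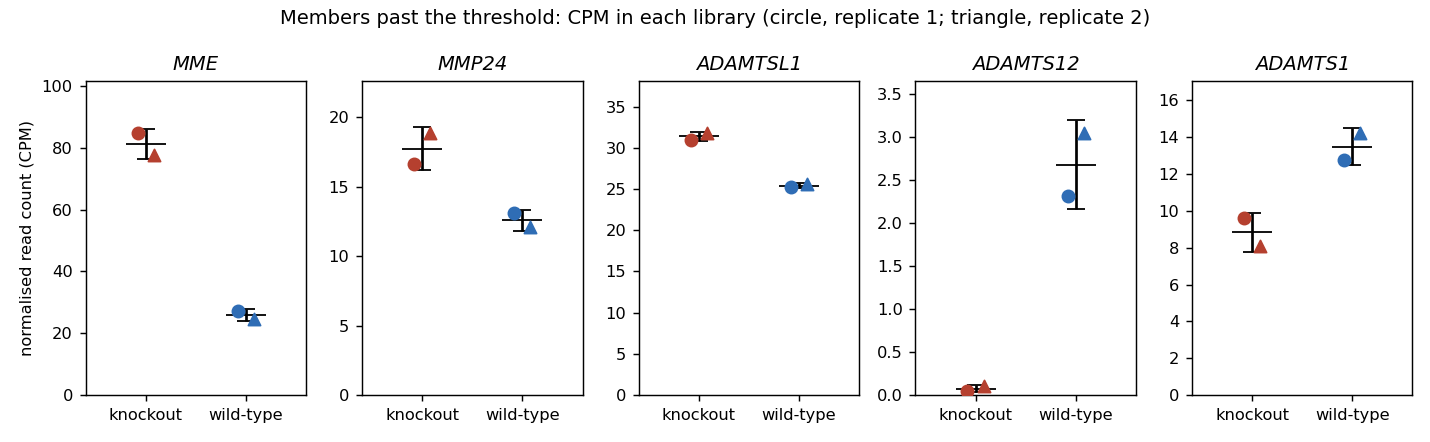
Normalised read counts (CPM, vertical axes from 0) of the 5 members that passed the threshold, in knockout and wild-type libraries. Circles and triangles are replicates 1 and 2, horizontal bars the mean and error bars the SD (n = 2 each). MME stood at 84.8 and 77.9 CPM in knockout and at 27.2 and 24.5 CPM in wild-type, and the groups overlapped in none of the 5 panels.

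MME, the neprilysin gene (chromosome 3, 155024202 to 155183729), had the largest rise. It had 1792 and 1549 counts in the knockout libraries against 565 and 604 in the wild-type libraries, or 84.8 and 77.9 CPM in knockout against 27.2 and 24.5 CPM in wild-type. Both knockout libraries lay far above both wild-type libraries. The mean was 81.3 ± 4.86 CPM in knockout and 25.8 ± 1.91 CPM in wild-type (SD, n = 2 each). Expression was thus 3.16-fold higher in knockout (95% interval 2.80 to 3.56), with a log2 fold change of 1.66 ± 0.09 (SE, edgeR adjusted p = 3.81e-21). The rise was nearly the same at each label date, 1.64 on the log2 scale at the first and 1.67 at the second. Counts per gene do not show which of its start sites was used. As these are bulk libraries, a change in the number of cells with a transcript and one in the amount per cell cannot be told apart, here and below.

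ADAMTS12 (chromosome 5, 33523535 to 33891990), which encodes a secreted enzyme that degrades cartilage oligomeric matrix protein, was nearly lost from the knockout clone. It had 1 and 2 counts in the knockout libraries against 48 and 75 in the wild-type libraries. In CPM these were 0.0473 and 0.101 in knockout against 2.31 and 3.04 in wild-type. With so few knockout counts its level there was barely above nothing, and the ratio of counts, knockout over wild-type and scaled for depth, was 0.0270 (exact 95% interval 0.00550 to 0.0809, counting error only). The log2 fold change was -5.09 ± 0.54 (edgeR adjusted p = 3.38e-10), with -5.61 at the first label date and -4.92 at the second. MME and ADAMTS12 were also called with DESeq2 and whichever library was left out.

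ADAMTS1 (chromosome 21, 26835755 to 26845409), whose product cuts the proteoglycans aggrecan and versican, fell more modestly. It had 203 and 161 counts in knockout against 266 and 351 in wild-type, and 9.60 and 8.09 CPM in knockout against 12.8 and 14.2 CPM in wild-type. The groups did not overlap, and the log2 fold change was -0.61 ± 0.14 (edgeR adjusted p = 0.00284). The fall was -0.41 on the log2 scale at the first label date and -0.81 at the second. It missed the threshold without knockout replicate 2 (adjusted p = 0.0868, edgeR) or wild-type replicate 2 (adjusted p = 0.0814, edgeR).

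MMP24 (chromosome 20, 35226690 to 35276998) encodes a membrane-type MMP known from the nervous system. It had 352 and 375 counts in knockout against 273 and 298 in wild-type, and 16.6 and 18.9 CPM in knockout against 13.1 and 12.1 CPM in wild-type. Each knockout library was above each wild-type library, with a log2 fold change of 0.50 ± 0.13 (edgeR adjusted p = 0.00625). The call was lost with DESeq2 (adjusted p = 0.0717), without knockout replicate 2 (edgeR adjusted p = 0.144) and without wild-type replicate 2 (edgeR adjusted p = 0.123). It overlaps MMP24-AS1 (now MMP24OS), which had 174 and 159 counts in knockout and 147 and 194 in wild-type (log2 fold change 0.12 ± 0.16), and whether the counting used the strand is not stated.

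ADAMTSL1 (chromosome 9, 17906633 to 18910950), an ADAMTS-like gene whose secreted product has no protease domain, had 656 and 632 counts in knockout against 525 and 633 in wild-type. Scaled for depth these were 31.0 and 31.8 CPM in knockout against 25.2 and 25.6 CPM in wild-type, with replicates close together. The log2 fold change was 0.30 ± 0.10 (edgeR adjusted p = 0.0453). This call sat at the threshold: DESeq2 gave an adjusted p of 0.236, and leaving out any 1 library raised edgeR's adjusted p to between 0.0654 and 0.295.

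**Figure D3:**
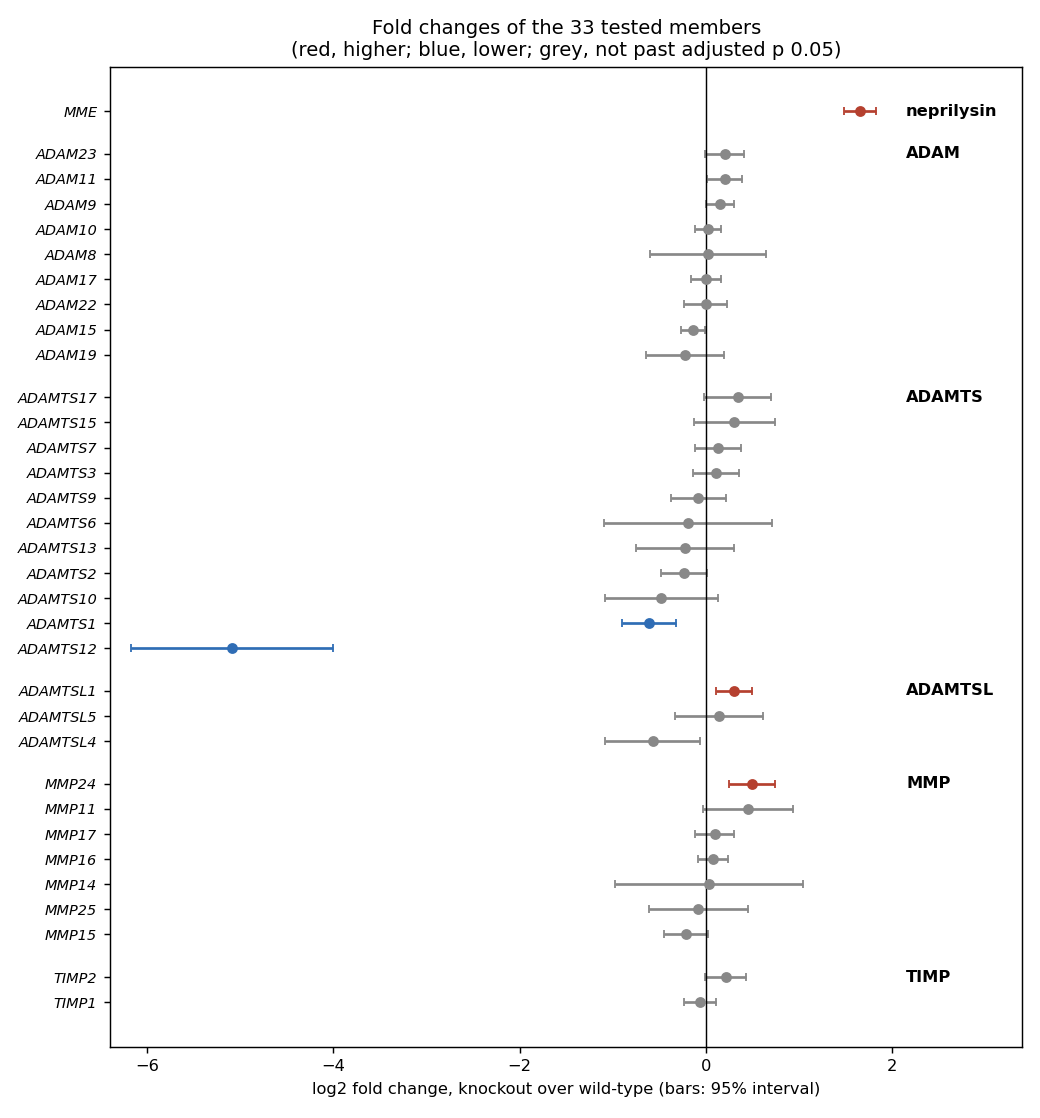
Log2 fold change of knockout over wild-type (horizontal axis) of the 33 tested members by subfamily, with 95% intervals from the edgeR fit. ADAMTS12 at -5.09 and MME at 1.66 stood apart, and the 28 members in grey lay between -0.57 and 0.45.

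The other 28 tested members did not pass the threshold, with log2 fold changes of -0.57 to 0.45 and a smallest adjusted p of 0.216 (edgeR). Their intervals show how far each was bounded: for 24 of the 28 the 95% interval lay within 2-fold either way. The 4 members whose interval reached past 2-fold were ADAMTSL4, ADAMTS10, ADAMTS6 and MMP14.

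Of the 22 ADAM genes 9 were tested and 0 were called by edgeR or by DESeq2, beside 6.56% and 3.61% of all genes tested. The 9 had a median log2 fold change of 0.02. At an unadjusted p under 0.05 there were 3 (edgeR), ADAM9, ADAM11 and ADAM15, while 16.7% of all genes tested passed that level. The sheddases with the widest range of substrates were closely bounded. ADAM10, which starts the cleavage of Notch receptors, had 107 and 98.0 CPM in knockout and 101 and 99.9 CPM in wild-type, overlapping groups with a log2 fold change of 0.03 (95% interval -0.11 to 0.16). ADAM17, which releases TNF and several EGF receptor ligands, had 59.2 and 54.0 CPM in knockout and 56.2 and 56.9 CPM in wild-type, a log2 fold change of 0.00077 (-0.16 to 0.16). Both values turned negative when scaled by library size alone. ADAM9 had 78.0 and 77.5 CPM in knockout and 68.3 and 71.7 CPM in wild-type, which did not overlap (0.15 ± 0.07, edgeR adjusted p = 0.288). The ADAM gene of lowest fold change was ADAM19 at -0.22 ± 0.21, and its knockout libraries differed, at 3.22 and 4.98 CPM, with 4.76 and 4.78 CPM in wild-type. Among ADAM genes whose products lack the active site and act as neuronal adhesion proteins or receptors, ADAM23 gave 0.20 ± 0.10 and ADAM22 gave -0.0032 ± 0.11.

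Of 19 ADAMTS genes 11 were tested, and besides ADAMTS12 and ADAMTS1 none was called. ADAMTS2 and ADAMTS3, which remove the N-terminal propeptide of procollagens, had log2 fold changes of -0.23 ± 0.12 and 0.11 ± 0.12. ADAMTS2 stood at 13.8 and 14.9 CPM in knockout against 16.3 and 17.5 CPM in wild-type, and ADAMTS3 at 16.2 and 15.4 CPM in knockout against 15.3 and 14.1 CPM in wild-type. ADAMTS15, another proteoglycanase gene, gave 0.31 ± 0.22 and ADAMTS17, a gene mutated in a short-stature syndrome, 0.34 ± 0.18. ADAMTSL4, whose product binds fibrillin, had 1.99 and 2.66 CPM in knockout against 2.88 and 3.97 CPM in wild-type, non-overlapping groups with a log2 fold change of -0.57 ± 0.25 (edgeR adjusted p = 0.216).

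Among the membrane-anchored MMP genes MMP15 had the lowest fold change, -0.21 ± 0.12, at 16.1 and 15.4 CPM in knockout against 17.0 and 19.5 CPM in wild-type. MMP14 gave 10 to 15 counts in every library, 11 and 12 in knockout and 10 and 15 in wild-type, too few to bound its change (log2 fold change 0.03, 95% interval -0.98 to 1.04). MMP11, the only stromelysin gene tested, had 3.64 and 3.27 CPM in knockout against 2.45 and 2.59 CPM in wild-type (0.45 ± 0.24, edgeR adjusted p = 0.345).

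The inhibitor genes did not pass the threshold. TIMP1 had 41.9 and 39.3 CPM in knockout and 42.2 and 42.8 CPM in wild-type, a log2 fold change of -0.07 (95% interval -0.24 to 0.11). TIMP2, whose protein also takes part in activating the MMP2 precursor, had 21.9 and 27.0 CPM in knockout and 21.9 and 20.4 CPM in wild-type. The TIMP2 difference was 0.21 ± 0.11 and lay almost wholly in the second label date (0.0050 at the first and 0.41 at the second). TIMP3 had 2 and 4 counts in knockout and 2 and 9 in wild-type, and MMP2 had 2 and 1 counts in knockout and 1 and 7 in wild-type, both too few to test.

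Summed over the 40 untested members there were 45 and 50 counts in the knockout libraries and 62 and 93 in the wild-type libraries. ADAM12, the meltrin alpha gene, studied in myoblast fusion and chosen after its values were seen, had 4 and 2 counts in knockout against 11 and 10 in wild-type. Its ratio of counts, knockout over wild-type, was 0.317 (exact 95% interval 0.105 to 0.811), and it was the only untested member whose interval, unadjusted and for counting error alone, left out 1. In a fit without the filter on low counts its adjusted p was 0.439 (edgeR).

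The neighbours of the changed members were taken next, as 5 tested genes on each side in RefSeq order. Only the 14223 tested genes with a RefSeq position (87.6%) could be placed, so nearer tested genes may be missing. Distances varied widely: EIF6 lay 1.91 kb from MMP24, DHX36 700 kb from MME and N6AMT1 1730 kb from ADAMTS1. Of the 10 neighbours of each of MME, MMP24, ADAMTSL1, ADAMTS12 and ADAMTS1, 0 were called by edgeR or by DESeq2. Over all genes tested these methods called 6.56% and 3.61%, so 0 calls in a set of 10 lies near those shares. Of the 50 in all, 8 had an unadjusted p under 0.05 (edgeR), beside 16.7% of all genes tested. With the date as a block 3 of the 50 were called, beside 9.55% of all genes tested: PLCH1 beside MME, BRIX1 beside ADAMTS12 and CEP250 beside MMP24. Around MME they ranged from -0.57 to 0.30 on the log2 scale. The nearest tested genes with a position, DHX36, a helicase gene, and PLCH1, a phospholipase C gene, gave -0.09 ± 0.09 and 0.25 ± 0.09 (edgeR adjusted p = 0.692 and 0.0916). Around ADAMTS12 the threonyl-tRNA synthetase gene TARS (now TARS1) gave -0.06 ± 0.06 and the racemase gene AMACR 0.34 ± 0.28. Further off, NPR3, a natriuretic peptide receptor gene, stood at a mean of 0.174 CPM in knockout and 0.625 CPM in wild-type and missed the threshold (-1.86 ± 0.66, edgeR adjusted p = 0.0899).

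**Figure D4:**
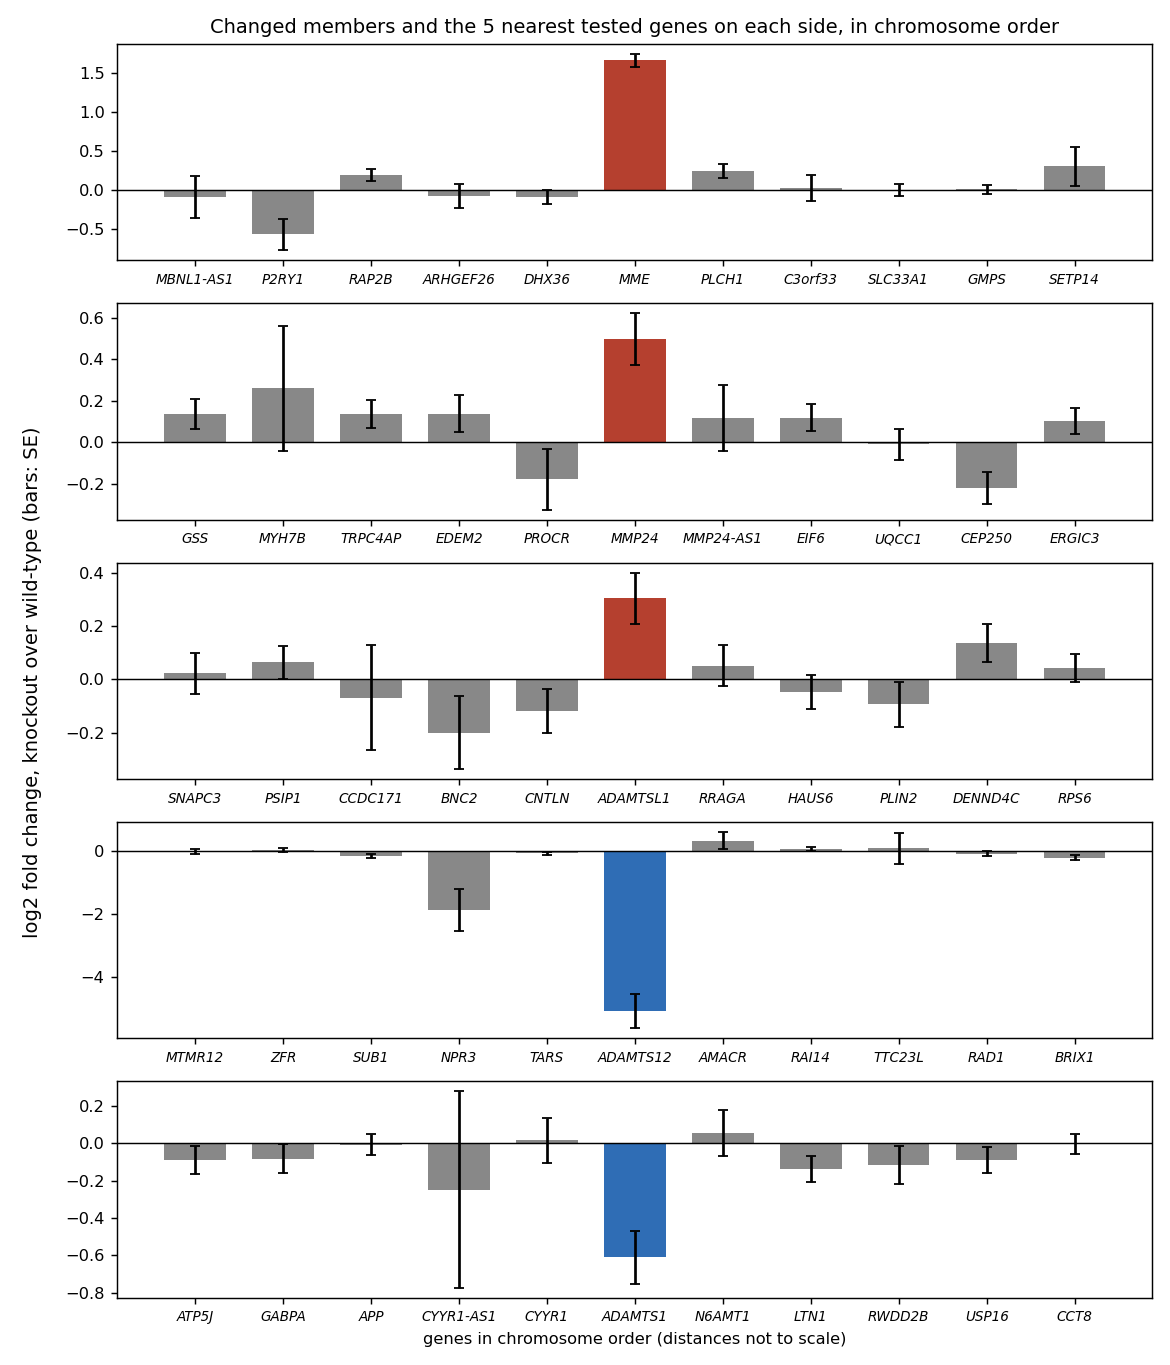
Log2 fold change of knockout over wild-type (vertical axes, scales differ, error bars SE) of each changed member and its neighbours, in chromosome order. Neighbours are the 5 nearest tested genes with a RefSeq position on each side, and distances are not to scale. Coloured bars passed the threshold and grey bars did not, and in each panel the member was the only gene past it.

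Genes around the family were then read from 7 lists of activators, inhibitors, substrates, relatives and transcription factors. The lists were written by hand with earlier results of these data known. Of their 106 tested genes 11 were higher and 12 lower in knockout, beside the 6.56% of all genes tested (3.06% higher, 3.50% lower). With the date as a block those shares were 4.72% higher and 4.83% lower. The counts of each list below stand beside the same shares. Because of how the lists were made, neither the pooled count nor that of any list can show that such genes changed more often than others. The 106 genes had a median log2 fold change of 0.08, against 0.0017 over all genes tested.

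Among 16 genes for activators and partners 1 was higher and 2 were lower, with a median of 0.07. TSPAN5, a tetraspanin that escorts ADAM10 to the cell surface, had 5.63 and 5.83 CPM in knockout against 9.32 and 12.5 CPM in wild-type (log2 fold change -0.94 ± 0.17, edgeR adjusted p = 4.68e-05). The 8 other tetraspanin, iRhom and FRMD8 genes for partners of ADAM10 and ADAM17 were not called, at -0.04 to 0.35. PCSK5, a proprotein convertase gene, fell by 0.81 on the log2 scale, and BSG, which encodes the MMP inducer basigin, rose by 0.19. DESeq2 called neither PCSK5 nor BSG. Leaving out knockout replicate 2 or wild-type replicate 1 also ended the PCSK5 call (adjusted p = 0.0942 and 0.0571, edgeR). The BSG call ended without knockout replicate 2, wild-type replicate 1 or wild-type replicate 2 (adjusted p = 0.244, 0.498 and 0.168, edgeR). In the blocked fit 3 of these genes were higher, PCSK6 and TSPAN17 being added (blocked adjusted p = 0.0422 and 0.0445, edgeR).

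The list of other inhibitors was not limited to inhibitors of metalloproteinases. Of its 8 tested genes 1 was higher, the cystatin gene CST3 (0.33 ± 0.08), and 2 were lower, with a median of -0.31. The 2 lower genes encode testicans, matrix proteoglycans, and were named after their values were seen. SPOCK3 had 2 and 0 counts in knockout against 19 and 41 in wild-type, a ratio of 0.0370 (exact 95% interval 0.00438 to 0.139), and SPOCK1 had 9 and 6 counts in knockout against 24 and 33 in wild-type. The SPOCK1 call was lost with DESeq2 (adjusted p = 0.194) and without knockout replicate 2 or wild-type replicate 2 (adjusted p = 0.157 and 0.189, edgeR), and the CST3 call without wild-type replicate 1 (adjusted p = 0.117, edgeR). RECK, a membrane-anchored MMP inhibitor gene also named after its values were seen, gave 0.21 ± 0.15 and was not called.

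Of 6 genes for plasminogen activation 2 were higher and 0 lower, with a median of 0.26. PLAT, the tissue plasminogen activator gene, had 4.97 and 4.73 CPM in knockout against 2.02 and 2.39 CPM in wild-type (1.13 ± 0.23, edgeR adjusted p = 0.000423). ANXA2, which encodes a plasminogen receptor subunit, rose by 0.31 ± 0.06. With the date as a block PLAUR, the urokinase receptor gene, was higher as well (blocked adjusted p = 0.0375, edgeR).

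Of 30 tested genes for shed receptors and ligands 0 were higher and 4 were lower, with a median of 0.07. CD44, the hyaluronan receptor gene, had 4 and 7 counts in knockout against 74 and 82 in wild-type, a log2 fold change of -3.65 ± 0.39 (edgeR adjusted p = 3.13e-10). IL6R, the interleukin 6 receptor gene, fell by 1.04 on the log2 scale, which DESeq2 did not call. The other 2, NRG1 and MET, were named after their values were seen: the EGF family ligand gene NRG1 had 3 and 1 counts in knockout against 26 and 33 in wild-type, and the receptor gene MET gave -0.39 ± 0.08. The IL6R call also ended without knockout replicate 2 or wild-type replicate 2 (adjusted p = 0.0556 and 0.0669, edgeR), and that of MET without wild-type replicate 2 (adjusted p = 0.141, edgeR). At an unadjusted p under 0.05, 6 of the list were higher (edgeR), beside 8.39% of all genes tested, and DESeq2 called 0 higher. With the date as a block NOTCH2 and EPHA2 were higher (blocked adjusted p = 0.0441 and 0.0182, edgeR).

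Of 18 tested genes for matrix substrates 4 were higher and 3 lower, beside 3.06% and 3.50% of all genes tested. Their median was 0.07, and the list was written by hand with earlier results known. VCAN, the gene for the proteoglycan versican that ADAMTS1 and its relatives cut, had 4 and 6 counts in knockout against 145 and 244 in wild-type. Its log2 fold change was -5.09 ± 0.33 (edgeR adjusted p = 4.32e-17). LAMB1, a laminin chain gene, fell by 0.57 on the log2 scale, while the thrombospondin gene THBS1 (0.90 ± 0.17) and the fibrillin gene FBN1 (0.47 ± 0.08) rose. The other calls, chosen after their values were seen, were the collagen gene COL2A1 (0.38 ± 0.05), SPARC (0.32 ± 0.07) and LTBP1, a gene for a TGF-beta binding protein (-1.61 ± 0.42). That of SPARC ended without wild-type replicate 2 (adjusted p = 0.243, edgeR), and that of LTBP1 with DESeq2 (adjusted p = 0.202) and without knockout replicate 2 or wild-type replicate 2 (adjusted p = 0.139 and 0.431, edgeR). With the date as a block 6 of the list were higher, FBN2 and HSPG2 being added (blocked adjusted p = 0.0140 and 0.0131, edgeR).

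Of 10 tested genes for other zinc metalloproteinases and relatives of the family 1 was higher and 1 lower, with a median of 0.14. The higher gene, THSD4, encodes no protease. TLL1, which encodes a procollagen C-proteinase of the tolloid group and was named after its values were seen, had 0 and 1 counts in knockout against 27 and 36 in wild-type. Its ratio of counts was 0.0176 (exact 95% interval 0.000439 to 0.102). THSD4, an ADAMTS-like gene whose symbol lies outside the family rule, rose by 0.40 ± 0.12 on the log2 scale. DESeq2 did not call THSD4, and without knockout replicate 2 or wild-type replicate 1 edgeR's adjusted p was 0.581 and 0.540. In the blocked fit ANPEP, the aminopeptidase N gene, was higher as well (blocked adjusted p = 0.0334, edgeR).

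Of 18 tested transcription factor genes linked to MMP transcription 2 were higher and 0 lower, with a median of 0.02. Both encode ETS family factors, ETV1 (0.63 ± 0.19) and ETS1 (0.51 ± 0.12), and DESeq2 did not call ETV1. The ETV1 call ended without knockout replicate 2 or wild-type replicate 1 (adjusted p = 0.289 and 0.369, edgeR), and that of ETS1 without knockout replicate 1 (adjusted p = 0.0782, edgeR). The AP-1 subunit genes of the list were not called.

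**Figure D5:**
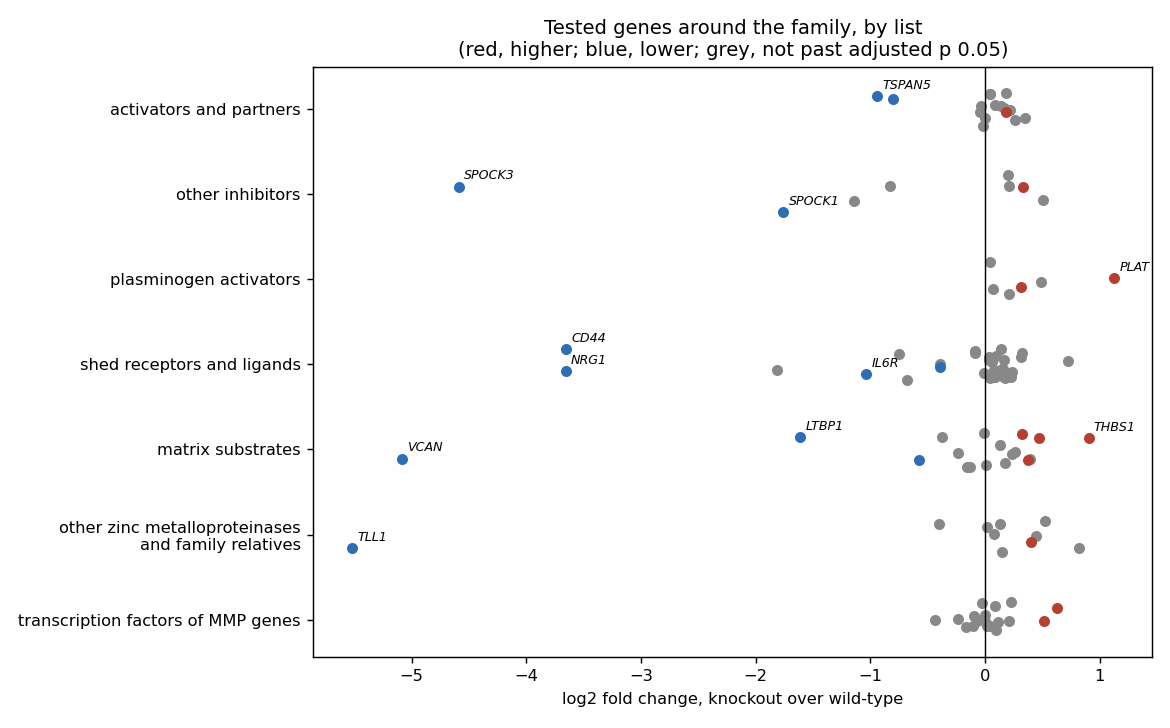
Log2 fold change of knockout over wild-type (horizontal axis) of 106 tested genes in 7 lists around the family. Each point is a gene and vertical offsets within a list are for legibility. VCAN (-5.09), TLL1 (-5.52) and SPOCK3 (-4.59) lay farthest to the left and PLAT (1.13) farthest to the right.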

How the data were processed

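RNA-seq counts of 2 knockout and 2 wild-type HAP1 libraries were used, and the 4 small RNA libraries, which hold no value of these genes, were not. The authors deposited raw counts, a whole-number read count for each of 57996 gene symbols, with no normalisation. Per the submitters' processing notes the build was hg38 and the tools included STAR, Subread's featureCounts, SAMtools, cutadapt and FastQC. Their versions, the annotation and the strand setting were not given in the sources used here. ADAMTS7 has near-identical pseudogene copies, so its counts are uncertain.

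The analysis used edgeR 4.0.16 in R 4.3.3. After filterByExpr (minimum count 10) 16233 genes remained. All of them entered 1 TMM-scaled model of genotype, tested by the robust quasi-likelihood F test with Benjamini-Hochberg adjustment (threshold 0.05). CPM use TMM-scaled library sizes. The SE of a log2 fold change is its size over the square root of F. The fit was tested on simulated data. These were drawn with the same dispersion for every gene, so they do not bear on the p-values given here. Alternatives were DESeq2 1.42.0, other scalings and filters, the date as a replicate block and leaving out each library. Count-based 95% intervals are exact and cover counting error only. Replicates differed by more than sampling noise (chi-square per degree of freedom 4.37 in knockout and 3.62 in wild-type). The submitters describe the replicates as biological but name no separate cultures. The p-values therefore reflect only how far these libraries differ, which may in part be technical. The shared label date pairs the libraries, though deviations of same-date libraries correlated only at 0.08 over genes.

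Members and lists were chosen with earlier results of these data known. Named were all called members, the ADAM9, ADAM10, ADAM17, MMP2, MMP14, MMP15, TIMP1 to TIMP3 and MME genes, the extremes of each role, and per list the largest changes, up to 2 called genes in each direction above 1 CPM on average. A further clause, the 5 members highest per coding length, was not applied because lengths were not used here, so levels are not compared between genes. Positions and sequences are RefSeq's (GRCh38.p14), matched by symbol.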

Additional observations from a re-analysis of the deposited data

How the results depend on the processing

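With DESeq2 the family had 1 member higher and 2 lower, and in the fits that left out 1 library 1 to 2 higher and 1 to 2 lower. The low counts in both directions came without knockout replicate 2 or wild-type replicate 2. With the date as a replicate block there were 3 higher and 2 lower, and it changed no call of a member. MME and ADAMTS12 were called in all 12 fits. ADAMTSL1 missed the threshold in 5 of the 7 alternatives that kept all libraries and in each that left one out. The pathway lists held 23 called genes, 31 with the date block and 16 with DESeq2. BCDIN3D was called lower in every fit (-1.96 to -1.17 on the log2 scale).

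Among the members named by the rule above, 5 changed sign in some fit, all of them uncalled. ADAMTS6, named only for its wide interval and also uncalled, ranged from -0.57 to 0.42 in the fits that left out 1 library. Scaled by library size alone ADAM10 was at -0.0015 and ADAM17 at -0.026. ADAM17 was also at -0.0047 with DESeq2's size factors and with DESeq2 itself, at -0.0083 with a filter of 1 CPM in 2 libraries and at -0.0012 with the date block. In the fits that left out 1 library ADAM10 ranged from -0.035 to 0.085, ADAM17 from -0.067 to 0.066, ADAM19 from -0.57 to 0.062, ADAM22 from -0.10 to 0.092 and MMP14 from -0.12 to 0.22. Depth limits the 40 untested members and MMP14, whose interval reached past 2-fold, as did those of ADAMTSL4, ADAMTS10 and ADAMTS6.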
